A study of Mus musculus with 8 samples.

Results

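Expression of 9 glutathione S-transferase genes was examined in mouse skin epithelium in which MOF or Kansl1 had been deleted. The genes are Gstm1, Gstm2, Gstm3, Gstm4 and Gstm5 of the mu class, Gsta4 of the alpha class, Gstp1 of the pi class, Gsto1 of the omega class and Gstt1 of the theta class, and all 9 were listed among the 23432 gene symbols counted in each library. They were taken by symbol, and the family was selected on its own counts in these libraries, so the differences of the 9 genes between genotypes are given as a description and not as a test. MOF, encoded by Kat8, is the enzyme that acetylates lysine 16 of histone H4, and Kansl1 is a subunit of NSL, one of the complexes that carry MOF.

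Polyadenylated RNA was sequenced from 4 groups of 2 libraries. E16.5 control and E16.5 MOF cKO (MOFfl/fl/K14Cre) libraries came from embryonic back skin, from cells sorted for K14-H2BGFP, a green fluorescent histone driven by the Krt14 promoter that both groups carried. P0.5 control and P0.5 Kansl1 cKO (Kansl1fl/fl/K14Cre) libraries came from whole newborn epidermis freed from the dermis with dispase. The genotype of the control animals is labelled only as control, and all mice were of mixed C57Bl/6J and CD-1 background. K14Cre acts in Krt14-expressing epithelium, so other cells on an epidermal sheet keep the undeleted gene. Stage, cell isolation and sequencing machine all changed between the experiments, which were scaled and fitted one by one.

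Glutathione S-transferases join the tripeptide glutathione to electrophilic compounds such as lipid aldehydes, drugs and products of oxidised lipids, and the conjugates are then exported and trimmed to mercapturates. The cytosolic enzymes work as dimers and are sorted into classes by sequence. Many mu, alpha and pi genes are textbook targets of Nrf2, the transcription factor of the antioxidant response encoded by Nfe2l2, and epidermis holds abundant transferase activity as part of its chemical barrier.

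The libraries held between 22484018 and 27561688 gene counts at E16.5 and between 9108709 and 19774643 at P0.5, so 1 count stood for between 0.0326 and 0.115 CPM, the count per 1000000 counts of a library after scaling. Kat8 was counted 443 and 408 times in E16.5 control and 248 and 329 times in MOF cKO (log2 fold change -0.14 with standard error 0.179, edgeR adjusted p = 0.554), and Kansl1 355 and 745 times in P0.5 control and 649 and 387 times in Kansl1 cKO (-0.52 with standard error 0.167, edgeR adjusted p = 0.242). Gene counts do not separate a deleted exon from the rest of the transcript. Sex was not matched: Xist was at 1518 CPM in E16.5 control replicate 1 and at most 12 CPM in the other E16.5 libraries, and Ddx3y was at 117.4 CPM in P0.5 control replicate 2 and at 0 in the other P0.5 libraries. All 6 keratinocyte markers were present in every library, with summed levels between 36160 and 45270 CPM at E16.5 and between 53130 and 82040 CPM at P0.5. Of 12 macrophage markers, 8 rose in MOF cKO past an edgeR adjusted p of 0.01 and a 1.5-fold change, the thresholds used throughout. Their summed levels were 21.07 and 46.53 CPM in control and 111.3 and 139.5 CPM in MOF cKO. Most of the control sums was Cd68, at 18.1 and 41.66 CPM, which overlapped with 22.94 and 51.87 CPM in MOF cKO. The median log2 fold change of the 12 markers was 4.76. The 7 dermal fibroblast markers summed to 1748 and 1092 CPM in P0.5 control and 926 and 738.9 CPM in Kansl1 cKO, the 5 melanocyte markers to 452 and 493.7 CPM against 948.2 and 1084 CPM, and the 5 skeletal muscle markers to 191.1 CPM in P0.5 control replicate 1 against 1.502 to 2.46 CPM in the other 3 libraries. Of these markers 0 passed the thresholds in edgeR, whereas DESeq2 called 4 fibroblast markers lower and 4 melanocyte markers higher, and at an unadjusted p under 0.05 edgeR put 5 fibroblast markers lower, 5 melanocyte markers higher and 1 muscle marker lower. The part of these cells in the results was not tested, and in bulk RNA fewer cells of a type and less RNA per cell cannot be told apart.

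The 5 mu-class members lie together. In GENCODE M21 on mm10 the mu cluster holds 7 genes over 149.1 kb, chr3:107895821-108044894, in the order Gstm5, Gstm7, Gstm6, Gstm3, Gstm2, Gstm1 and Gstm4, with Gstm5 on the plus strand and the others on the minus strand. Gsta4 lies at chr9:78182774-78209349 on the plus strand, Gstp1 at chr19:4035407-4037985 on the minus strand, Gsto1 at chr19:47854970-47864790 on the plus strand and Gstt1 at chr10:75783813-75798584 on the minus strand. Coding sequences of Gstm1, Gstm2, Gstm3 and Gstm4 were identical at between 79.1% and 89.4% of aligned bases, and Gstm5 matched them at between 68% and 71.1%. No stretch of 150 bases, the read length of the study, in the reference transcripts of Gstm1, Gstm2, Gstm4 or Gstm5 was shared with another gene. In Gstm3 3.44% of such windows were shared with Gm8834. Gstp1 is less certain, because 41.8% of its windows were identical to its neighbour Gstp2 and the coding sequences of the pair matched at 98.1% of bases. Shorter windows of 50 bases were shared with another gene in 23.1% of Gstm1, 9.36% of Gstm2, 28.8% of Gstm3 and 62.3% of Gstp1. Windows of this length in Gstm4 and Gstm5 were not shared. Reads assigned to the wrong gene were not measured.

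RefSeq promoter windows, each 250 bases before to 50 bases after a start on GRCm38.p6, matched 8 of the 9 members and left Gsta4 unmatched. They were searched on both strands for the antioxidant response element core TGACNNNGC, to which Nrf2 binds, held by 12.4% of all 32851 windows, for the AP-1 site TGANTCA, held by 7.81%, for the xenobiotic response element core TNGCGTG, held by 5.07%, and for the TATA box TATAAA, held by 13.6%. In the first window of each member the antioxidant core was found in Gstm5 only, 42 bases before its RefSeq start. The AP-1 site was found in Gstm5, 176 bases before that start, and in Gstp1, 74 bases before its own. No first window held the xenobiotic core, and the TATA letters were found in Gstm5, 40 bases after the RefSeq start. The bases upstream of both the RefSeq start and the outermost GENCODE start are printed for the 4 mu genes with both deleted libraries below both controls in each experiment. In Gstm5 the GENCODE start lies upstream of the RefSeq start, so the printed bases stop before the start from which the distances are counted. A link between these motifs and the levels was not tested. The capitals in Gstm5 mark the AP-1 site and then the antioxidant core, which do not overlap.
Gstm5, chr3:107895604-107895820, plus strand: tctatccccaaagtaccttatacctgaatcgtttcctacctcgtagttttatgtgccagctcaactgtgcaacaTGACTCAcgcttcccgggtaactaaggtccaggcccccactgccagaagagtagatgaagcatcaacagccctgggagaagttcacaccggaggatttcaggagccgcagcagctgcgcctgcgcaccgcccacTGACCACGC
Gstm2, chr3:107986454-107986670, minus strand: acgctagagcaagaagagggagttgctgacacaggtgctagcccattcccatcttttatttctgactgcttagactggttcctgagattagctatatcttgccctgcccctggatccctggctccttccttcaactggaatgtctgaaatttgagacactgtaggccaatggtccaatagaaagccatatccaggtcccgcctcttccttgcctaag
Gstm1, chr3:108017974-108018223, minus strand: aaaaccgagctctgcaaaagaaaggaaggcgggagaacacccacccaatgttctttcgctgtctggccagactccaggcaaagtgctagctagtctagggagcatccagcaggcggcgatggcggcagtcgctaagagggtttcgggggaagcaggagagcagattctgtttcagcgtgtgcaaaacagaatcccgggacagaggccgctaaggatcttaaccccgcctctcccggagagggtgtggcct
Gstm4, chr3:108044895-108045109, minus strand: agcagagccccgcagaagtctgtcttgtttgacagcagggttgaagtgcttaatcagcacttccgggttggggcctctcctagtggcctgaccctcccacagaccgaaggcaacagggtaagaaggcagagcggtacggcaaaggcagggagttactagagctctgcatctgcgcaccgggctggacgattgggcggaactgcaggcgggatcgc
The Gstm2 window was poor in CpG, with 3 of the dinucleotides in its 300 bases against 18 in Gstm5, 14 in Gstm1 and 14 in Gstm4 and a median of 7 over all windows. A match describes letters only, and binding of any factor was not measured in these data.

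To compare members with each other, CPM was divided by the union length of all annotated exons, giving CPM per kilobase. In E16.5 control the order ran from Gstm2 at 57.3 ± 18.9 CPM per kilobase (SD, n = 2), through Gsta4 at 32.5 ± 9.15, Gstp1 at 31.9 ± 0.425, Gstm1 at 30.8 ± 8.03 and Gsto1 at 27.1 ± 19.2, to Gstm5 at 8.94 ± 3.94, Gstm4 at 3.71 ± 0.849 and Gstm3 at 0.778 ± 0.185. The libraries of Gsta4, Gstp1, Gstm1 and Gsto1 overlapped from one to the next, so their order is not resolved, whereas Gstm2 lay above Gsta4 and each of Gstm5, Gstm4 and Gstm3 below its predecessor in both libraries. In P0.5 control the order was led by Gsto1 at 122.4 ± 16.46 CPM per kilobase (SD, n = 2), followed by Gstm5 at 43.6 ± 1.52, Gstm2 at 26.2 ± 6.09, Gstm1 at 17.0 ± 0.662, Gstp1 at 13.3 ± 4.10, Gsta4 at 9.97 ± 3.19 and Gstm4 at 2.31 ± 0.424. Of these neighbours, only Gstp1 and Gsta4 overlapped. The order depends on the length used: dividing by the longest annotated transcript instead changed 4 of 9 ranks in E16.5 control, 2 in MOF cKO, 2 in P0.5 control and 6 in Kansl1 cKO, and in P0.5 control it put Gstp1 at 25.0 above Gstm1 at 19.4 CPM per kilobase. Gstt1 was near the limit of detection in every group, with 0 to 4 counts per library, and Gstm3 was counted at most 4 times in any P0.5 library. Gstm5 thus stood sixth of 9 in sorted E16.5 control cells and second in P0.5 control epidermis, and no test was made across the separately scaled experiments.

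**Figure D1:**
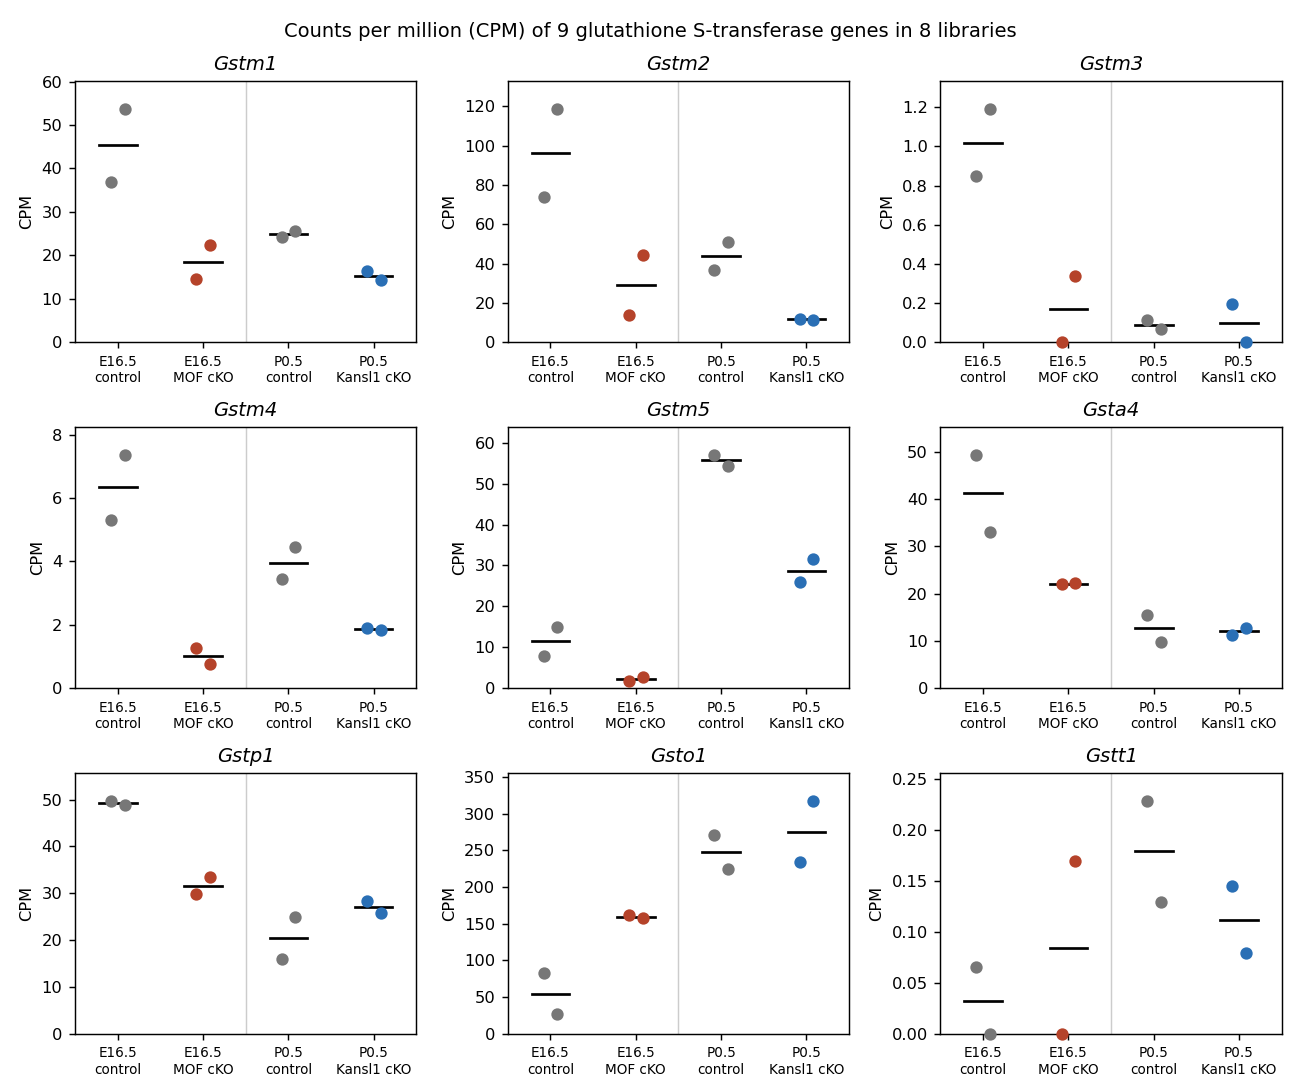
CPM of each member (vertical axes, linear and starting at 0) in the 2 libraries of each group, with points for libraries, bars for group means and a grey line between the experiments. In MOF cKO both libraries lie below both controls for Gstm1, Gstm2, Gstm3, Gstm4, Gstm5, Gsta4 and Gstp1 and above them for Gsto1, and in Kansl1 cKO both lie below for Gstm1, Gstm2, Gstm4 and Gstm5 and above for Gstp1.

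In MOF cKO the 5 mu-class members were lower together, though Gstm2 and Gstm3 did not pass the thresholds in edgeR or DESeq2. The mu gene Gstm6, outside the members, had overlapping groups (log2 fold change -0.03, standard error 0.373). Gstm2, the most abundant mu transcript at E16.5, was at 73.8 and 118.7 CPM in control and 14 and 44.2 CPM in MOF cKO. The MOF cKO libraries differed from each other but both lay below both controls, with a log2 fold change of -1.72 (standard error 0.472), or 3.29-fold lower. This value was -2.78 without MOF cKO replicate 2 and -1.13 without MOF cKO replicate 1. Gstm1, the family's classical liver form, was at 37.0 and 53.7 CPM in control and 14.6 and 22.4 CPM in MOF cKO. Its groups did not overlap, and the log2 fold change was -1.29 (standard error 0.253), or 2.45-fold lower. Gstm5, the form at the edge of the cluster and the one transcribed from the plus strand, was at 7.86 and 14.98 CPM in control and 1.61 and 2.75 CPM in MOF cKO. Here too the groups were apart, at a log2 fold change of -2.38 (standard error 0.426), or 5.19-fold lower. Gstm4, at the opposite edge, was at 5.32 and 7.37 CPM in control and 1.26 and 0.762 CPM in MOF cKO. Its log2 fold change of -2.66 (standard error 0.443), or 6.3-fold lower, was the largest of the members when all 4 libraries were fitted, but without MOF cKO replicate 2 it was -2.33 and stood behind Gstm3, Gstm5 and Gstm2. Gstm3 was scarce, with 26 and 33 counts in the controls against 0 and 8 after deletion, and it passed the filter on low counts through its control libraries. Its log2 fold change of -2.50 carried a standard error of 1.16 and became -1.58 without MOF cKO replicate 1, the library with 0 counts. Without MOF cKO replicate 2, which left only the library with 0 counts, it was -7.74.

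The members outside the mu class split. Gsta4, which detoxifies the lipid peroxidation product 4-hydroxynonenal, was at 49.4 and 33.0 CPM in control and 21.9 and 22.2 CPM in MOF cKO. The groups did not overlap and the log2 fold change was -0.90 (standard error 0.202), with the spread on the control side. Gstp1, a pi-class enzyme abundant in many epithelia, was at 49.8 and 48.8 CPM in control and 29.8 and 33.5 CPM in MOF cKO. This was the smallest of the differences, -0.64 on the log2 scale (standard error 0.128), between the tightest control pair of the family. Gsto1, an omega-class enzyme that reduces small molecules rather than conjugating them, was at 82.3 and 27.4 CPM in control and 161.9 and 157.2 CPM in MOF cKO. Both MOF cKO libraries lay above both controls, but the controls stood far apart from each other, and the log2 fold change of 1.54 (standard error 0.423) became 2.54 without E16.5 control replicate 1 and 0.96 without replicate 2. Gstt1 was counted 2 and 0 times in control and 0 and 4 times in MOF cKO, too few for the fit.

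Of the 9 members, 8 passed the filter on low counts, 7 of them lower and 1 higher in MOF cKO, without overlap between groups in any of the 8. Among all 13956 tested genes both MOF cKO libraries lay below both controls in 37.7% and above them in 34.9%. The thresholds were 0.01 for the adjusted p of edgeR's quasi-likelihood test and 1.5 for the fold change, and 4 members passed them as lower, Gstm1, Gstm4, Gstm5 and Gstp1, and 0 as higher, where 9.59% of all tested genes passed as lower and 10% as higher. Without a threshold on the adjusted value, 6 members lay lower and 1 higher at an unadjusted p under 0.05, as did 3506 and 3314 of the 13956 tested genes. DESeq2 added Gsta4, for 5 lower and 0 higher, against 11.7% and 12.0% of all genes. Since these counts chose the family, the shares say nothing further about it. The median log2 fold change of the 8 members was -1.50, beside -0.02 over all tested genes. Without MOF cKO replicate 1, only 2 members, Gstm4 and Gstm5, passed as lower. Scaling by library size alone moved the median of all genes from -0.02 to -0.32 and the genes called lower and higher from 1338 and 1395 to 2743 and 769, and it left the sign of each of the 8 members as it was. In the E16.5 libraries that share the Xist and Ddx3y pattern, obtained by leaving out control replicate 1, the 5 mu members lay between -2.87 and -1.54, Gsta4 at -0.58 and Gstp1 at -0.63 on the log2 scale. Of the 6 keratinocyte markers, 2 passed the thresholds in edgeR as higher in MOF cKO and 1 as lower. Krt1, a keratin of the suprabasal layers, stood at 1549 and 1255 CPM in E16.5 control and 4227 and 4691 CPM in MOF cKO. Krt10 stood at 2253 and 1813 against 4177 and 4660 CPM, and Krt14 at 10040 and 9690 against 10440 and 12270 CPM. Krt15 stood lower, at 4160 and 3327 against 1507 and 1626 CPM, as did Trp63, at 708.2 and 632.4 against 483.8 and 417.4 CPM. Krt5 had overlapping groups. The 7 fibroblast markers summed to 916.9 and 1552 CPM in control against 1541 and 2150 CPM in MOF cKO, which overlapped. At an unadjusted p under 0.05 edgeR put 6 of them higher and 1 lower, with a median log2 fold change of 1.035. The lower one was Dcn, at 494.9 and 509.4 CPM in control against 411.2 and 403.6 CPM in MOF cKO. The 5 endothelial markers summed to 6.164 and 7.22 CPM in control against 10.79 and 22.32 CPM in MOF cKO, with 1 called higher. Skeletal muscle markers summed to 1.109 and 1.155 CPM against 1.807 and 14.74 CPM. Melanocyte markers overlapped, at 14.41 and 42.53 against 16.36 and 64.24 CPM. T cell markers lay lower, at 59.09 and 41.88 against 39.76 and 24.14 CPM. The part of these and the macrophage markers in the members' differences was not tested.

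In Kansl1 cKO the 4 tested mu-class members again lay lower, and the other members did not share this. Gstm2 was at 36.7 and 51.1 CPM in P0.5 control and 11.8 and 11.4 CPM in Kansl1 cKO. It had the largest difference of the members at P0.5, with a log2 fold change of -1.92 (standard error 0.215), or 3.79-fold lower, and a pair of Kansl1 cKO libraries that nearly coincided. Gstm5 was at 57.1 and 54.3 CPM in control and 25.9 and 31.5 CPM in Kansl1 cKO. The groups were apart, at -0.96 on the log2 scale (standard error 0.171), or 1.94-fold lower. Gstm1 was at 24.3 and 25.7 CPM in control and 16.4 and 14.2 CPM in Kansl1 cKO, which is -0.70 on the log2 scale (standard error 0.181). Gstm4, at 3.44 and 4.46 CPM in control and 1.89 and 1.82 CPM in Kansl1 cKO, had a log2 fold change of -1.10 (standard error 0.360). All 4 of these mu genes had both Kansl1 cKO libraries below both controls. Gstm3 had 1 count in each control and 4 and 0 in Kansl1 cKO and was not tested.

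Gsta4 was at 15.5 and 9.76 CPM in P0.5 control and 11.2 and 12.8 CPM in Kansl1 cKO, so the Kansl1 cKO libraries lay within the control range (log2 fold change -0.06, standard error 0.272). Gsto1, the most abundant member at P0.5, was at 271.1 and 224 CPM in control and 233.4 and 317.7 CPM in Kansl1 cKO, with overlapping groups (0.15, standard error 0.212). Gstp1 was at 16.0 and 25.0 CPM in control and 28.3 and 25.9 CPM in Kansl1 cKO. Its groups were apart by a narrow margin, higher in Kansl1 cKO, at a log2 fold change of 0.39 (standard error 0.238). Gstt1 was counted 1 to 3 times per library and was not tested.

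**Figure D2:**
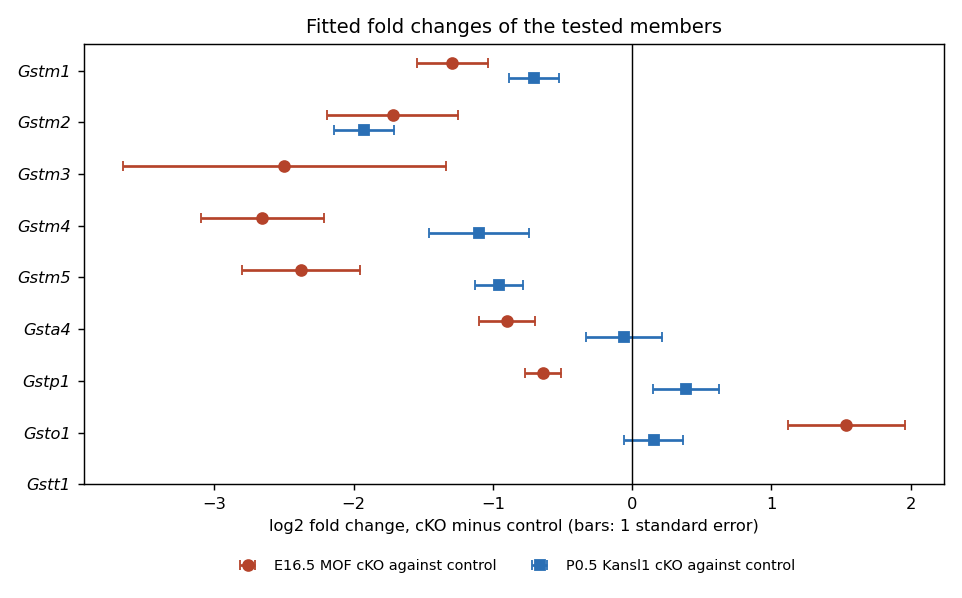
Fitted log2 fold change (horizontal axis, cKO minus control) of each tested member, as circles for MOF cKO and squares for Kansl1 cKO, with bars of 1 standard error. Tested mu-class genes lie left of 0 in both experiments, Gsto1 lies at 1.54 in MOF cKO and 0.15 in Kansl1 cKO, and Gstt1 was not tested.

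Of the 9 members, 7 were tested at P0.5, and 4 lay lower and 1 higher in Kansl1 cKO without overlap, against 22.7% and 26.0% of all 13031 tested genes. With edgeR's quasi-likelihood test 0 members passed the thresholds in either direction, as did 0 of all genes (0% lower and 0% higher), and the smallest adjusted p of any gene was 0.110. At an unadjusted p under 0.05, 4 members were lower and 0 higher, and 1077 and 968 of all genes. DESeq2 called Gstm2 and Gstm5 lower and 0 members higher, where it called 0.443% and 0.282% of all genes. The family was selected with these values known, and nothing is read from the counts. The median over the 7 members was -0.70 on the log2 scale, beside 0.01 over all tested genes. Left without control replicate 2, the library that carried Ddx3y, the fit gave Gstm2 -1.69, Gstm5 -1.02, Gstm4 -0.92 and Gstm1 -0.69. Leaving out control replicate 1, the library with the skeletal muscle transcripts, gave -2.14, -0.92, -1.26 and -0.74 for the same genes. The lower fibroblast and higher melanocyte marker sums of Kansl1 cKO ran beside these differences. The 12 macrophage markers summed to 202.6 and 236.8 CPM in P0.5 control and 297.1 and 323.7 CPM in Kansl1 cKO, with 4 higher at an unadjusted p under 0.05, and the 4 T cell markers to 21.1 and 9.37 CPM against 20.2 and 19.5 CPM, with 3 higher. The part of these cells in the differences was not tested.

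The share of each member in the family's transcript needs no scaling between libraries, unlike the sum. The summed level of the 9 members was 193 ± 3.13 CPM per kilobase (SD, n = 2) in E16.5 control and 149.1 ± 17.4 in MOF cKO, and 234.8 ± 9.96 in P0.5 control and 204.2 ± 31.0 in Kansl1 cKO. Within that sum Gsto1 held 21.3% and 6.93% in the E16.5 controls and 58.5% and 48.2% in MOF cKO. The 5 mu members together were at 78.9 and 124.1 CPM per kilobase in E16.5 control and 20.2 and 44.4 in MOF cKO, and at 85.1 and 93.0 in P0.5 control and 39.7 and 42.2 in Kansl1 cKO. In both experiments the mu sums of the deleted libraries lay below both controls.

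Among the mu members the make-up also differed. Gstm2 held 55.7% and 57.0% of the mu sum in the E16.5 controls and 41.3% and 59.3% in MOF cKO, where the libraries straddled the control values. At P0.5 it held 25.7% and 32.7% in control and 17.7% and 16.1% in Kansl1 cKO, lower in both. Read as a ratio per kilobase, Gstm2 stood at 1.32 and 1.75 times Gstm1 in P0.5 control and at 0.632 and 0.702 times in Kansl1 cKO. Gstm5 held 52.5% and 45.7% of the mu sum in P0.5 control and 51.1% and 58.5% in Kansl1 cKO, which overlapped. In E16.5 control its share was 7.79% and 9.45%, and in MOF cKO 6.22% and 4.86%.

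**Figure D3:**
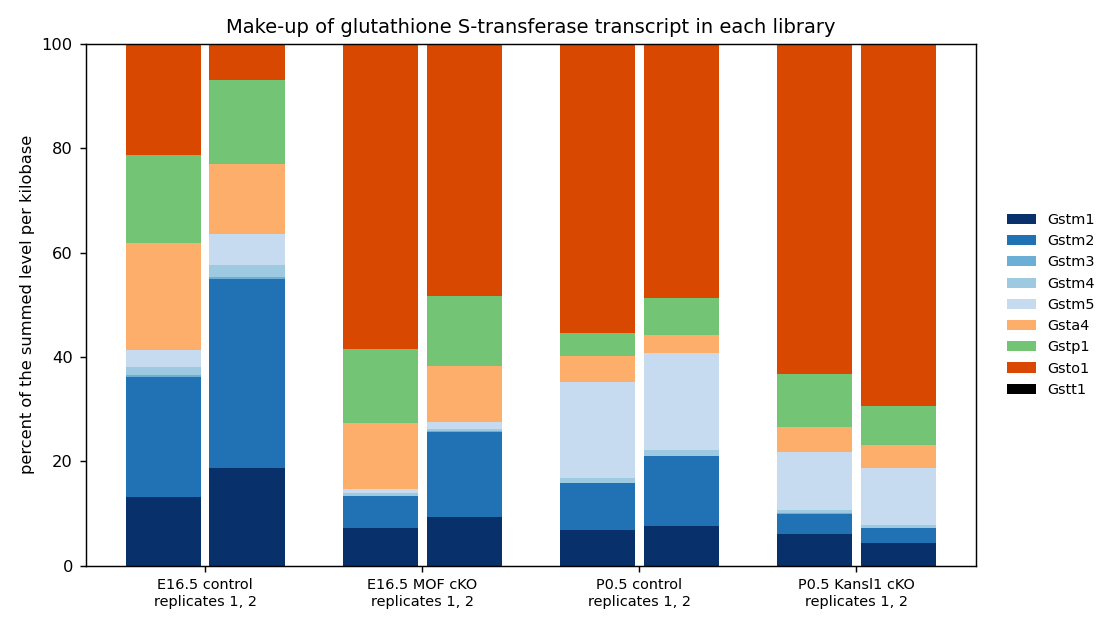
Percent of the summed level per kilobase of the 9 members (vertical axis) that each member holds in each of the 8 libraries, stacked by member. Gsto1 takes between 6.93% and 21.3% in E16.5 control and between 48.2% and 69.5% in the other 6 libraries, and Gstm5 takes between 10.9% and 18.7% at P0.5 against at most 6.0% at E16.5.

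The remaining genes of the mu cluster were read in the same fits. Gstm7 was counted 75 and 74 times in E16.5 control and 6 and 0 times in MOF cKO (log2 fold change -4.12 with standard error 1.07, edgeR adjusted p = 0.0203), which missed the threshold in edgeR and passed as lower in DESeq2. Like Gstm3, it passed the filter on low counts through its control libraries. Gstm6, between Gstm7 and Gstm3, was counted 103 and 101 times in control and 75 and 73 times in MOF cKO, which after scaling were overlapping levels of 3.36 and 3.65 against 3.77 and 3.09 CPM (-0.03 with standard error 0.373, edgeR adjusted p = 0.954). Thus 6 of the 7 clustered genes had both MOF cKO libraries below both controls and Gstm6 did not, beside 37.7% of all tested genes, and nothing is read from that count, since 5 of the 6 are members. At P0.5 Gstm6 had a log2 fold change of -0.42 (standard error 0.441), again with overlap, and Gstm7, at 1 to 18 counts, was not tested. Protein-coding genes within 150 kb of the cluster were added after the values of the cluster had been seen. Of these 7, 4 were tested in both experiments, and Csf1 in MOF cKO passed the thresholds in DESeq2 but in edgeR none did, with 1 neighbour lower and 1 higher at an unadjusted p under 0.05 in MOF cKO and 0 in Kansl1 cKO. In MOF cKO the macrophage growth factor gene Csf1 was at 1.04 (standard error 0.233, edgeR adjusted p = 0.0118), Ampd2 at 0.15 (0.142), Gnai3 at -0.01 (0.134) and Amigo1 at -0.47 (0.175) on the log2 scale. In Kansl1 cKO these 4 lay between -0.24 and -0.06 and each had overlapping groups.

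**Figure D4:**
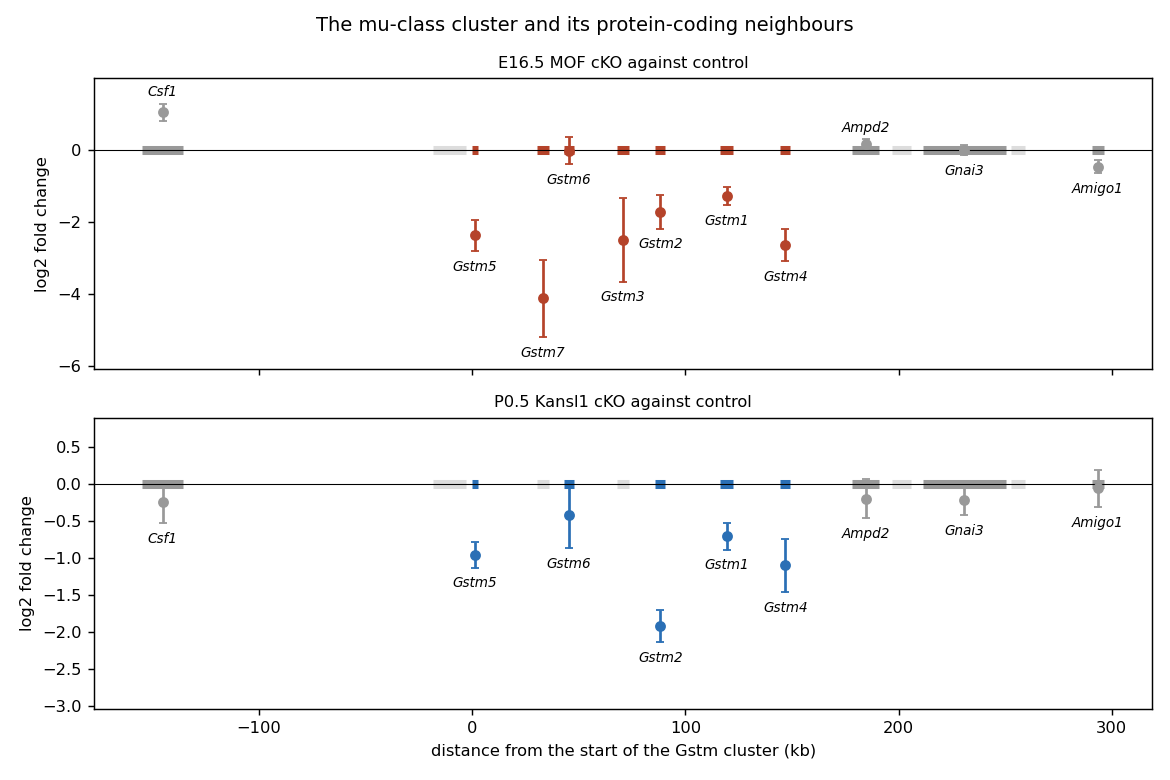
Log2 fold change (vertical axes, cKO minus control, bars of 1 standard error) of the genes in and around the mu-class cluster by distance from its start in kb, with thick marks for gene bodies, colour for cluster genes, grey for neighbours and pale marks for genes too low to test. The fitted cluster genes lie below 0 in both experiments, Gstm6 closest to it at -0.03 in MOF cKO and -0.42 in Kansl1 cKO, and the nearest tested neighbour, Ampd2, lies at 0.15 in MOF cKO and -0.19 in Kansl1 cKO.

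Other glutathione transferases outside the 9 members were taken as a list of 22 counted genes. In MOF cKO 15 were tested, of which 2 fell and 2 rose, beside 9.59% and 10% of all tested genes, with a median log2 fold change of -0.03. DESeq2, the fit with the replicate block, the fit without the filter and an adjusted p of 0.05 each called 4 lower. Gstk1, the mitochondrial and peroxisomal kappa-class enzyme, fell from 11.8 and 13.9 CPM to 4.17 and 3.30 CPM (-1.78 with standard error 0.261, edgeR adjusted p = 0.00225). Gstz1, the zeta-class maleylacetoacetate isomerase of tyrosine breakdown, fell from 26.7 and 24.7 CPM to 13.8 and 12.6 CPM (-0.97 with standard error 0.160, edgeR adjusted p = 0.00369). The pair that rose is membrane-bound. Mgst1, a microsomal glutathione transferase, rose from 7.403 and 7.437 CPM to 45.4 and 24.8 CPM (2.24 with standard error 0.287, edgeR adjusted p = 0.00139). Ptges, which makes prostaglandin E2 and belongs to the same superfamily, rose from 73.2 and 60.2 CPM to 244.5 and 235.7 CPM (1.85 with standard error 0.126, edgeR adjusted p = 0.000263). Gstt3, a theta-class gene, was at 6.20 and 7.76 CPM in control and 0.803 and 2.58 CPM in MOF cKO and missed the threshold in edgeR while DESeq2 called it lower (-2.02 with standard error 0.533, edgeR adjusted p = 0.0214). The other tested genes of the list had log2 fold changes of -1.03 for Gstt2, -0.17 for Mgst2, -0.07 for Gstcd, -0.01 for Mgst3, 0.16 for Hpgds, 0.46 for Alox5ap, 1.42 for Gsta3 and 2.11 for Gsta2.

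In Kansl1 cKO 19 genes of this list were tested and 0 passed in edgeR or in DESeq2, with 4 lower and 2 higher at an unadjusted p under 0.05 and a median of -0.15. Gstk1 was at 20.3 and 20.5 CPM in control and 9.79 and 10.3 CPM in Kansl1 cKO (-1.02 with standard error 0.187, edgeR adjusted p = 0.176), apart in all 4 libraries. Mgst1 was at 42.0 and 41.5 CPM in control and 72.0 and 59.0 CPM in Kansl1 cKO (0.65 with standard error 0.167, edgeR adjusted p = 0.206), also apart. The alpha-class genes Gsta1, Gm3776 and Gsta2 lay at -0.54, -0.50 and -0.73, and Gsta1 and Gm3776 cannot be separated well because 73.7% of the 150-base windows of Gsta1 occur in Gm3776. The values for the rest were -1.28 for Gstt3, -0.47 for Gstt2, -0.36 for Gstz1, -0.35 for Alox5ap, -0.15 for Ptges, -0.14 for Mgst2, 0.15 for Gsta3, 0.22 for Ltc4s, 0.37 for Gstcd, 0.39 for Hpgds, 0.62 for Gstp2, 0.62 for Mgst3 and 0.90 for Gm10639.

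Genes that supply, recycle or use glutathione and that respond to Nrf2 were read as 5 further lists, each beside the 10% of all tested genes that rose and the 9.59% that fell in MOF cKO. Of 13 tested genes of glutathione synthesis and breakdown, 1 rose in MOF cKO and 0 fell (median 0.01), which became 1 and 3 with scaling by library size alone. The gene that rose was Slc7a11, the cystine importer that feeds glutathione synthesis, from 1.76 and 0.902 CPM to 34.1 and 20.0 CPM (log2 fold change 4.33 with standard error 0.392, edgeR adjusted p = 0.000542). Gclc and Gclm, the subunits of the rate-limiting ligase, were at 0.02 and 0.25 and did not pass. Of 23 tested redox enzymes of the glutathione and thioredoxin systems, 9 rose and 1 fell (median 0.57), which became 5 and 2 with scaling by library size alone. Those that rose included the peroxidases Gpx1 (0.99, standard error 0.108) and Gpx2 (3.21, standard error 0.562), thioredoxin Txn1 (1.07, standard error 0.116), sulfiredoxin Srxn1 (2.96, standard error 0.324) and Glrx3 (1.29, standard error 0.191), and further Txn2 (0.61), Prdx1 (0.71), Prdx3 (0.77) and Prdx5 (0.69). Prdx4, the peroxiredoxin of the endoplasmic reticulum, fell by 0.85 on the log2 scale (standard error 0.163).

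Of the 10 Nrf2 regulators, 3 rose in MOF cKO and 0 fell (median 0.37), and 1 rose when scaled by library size alone. Nfe2l2, which encodes Nrf2, rose from 41.6 and 39.7 CPM to 93.2 and 84.5 CPM (log2 fold change 1.13 with standard error 0.118, edgeR adjusted p = 0.000763). Mafg, a partner of Nrf2 on DNA, and Bach1, a repressor at the same sites, rose by 0.84 and 0.59 on the log2 scale, while Keap1, the adaptor that targets Nrf2 for degradation, was at -0.11 and did not pass. Of 18 Nrf2 targets outside glutathione enzymes, 3 rose and 2 fell (median 0.06), against 2 and 3 by library size. On the log2 scale Hmox1, haem oxygenase, rose by 2.11, Ephx1, an epoxide hydrolase, by 1.83 and Ftl1, ferritin light chain, by 0.89, whereas Ugdh, which makes UDP-glucuronate, fell by 1.19 and Taldo1, of the pentose phosphate pathway, by 1.007. Nqo1, the standard reporter of Nrf2 activity, was at 4.40 and 5.13 CPM in control and 10.7 and 4.91 CPM in MOF cKO, which overlapped. Of 10 genes of conjugate export and the mercapturate steps, Abcc4, an exporter, fell by 1.52 on the log2 scale and Nat8l, better known for making N-acetylaspartate, rose by 2.42 (median -0.39), and 4 fell and 1 rose by library size. In Kansl1 cKO 0 genes of these 5 lists passed in edgeR or in DESeq2, with 6 of 75 lower and 5 higher at an unadjusted p under 0.05 and list medians between -0.19 and 0.13. At P0.5 Nfe2l2 was at 23.5 and 33.1 CPM in control and 39.2 and 39.8 CPM in Kansl1 cKO (0.48 with standard error 0.204, edgeR adjusted p = 0.327).

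**Figure D5:**
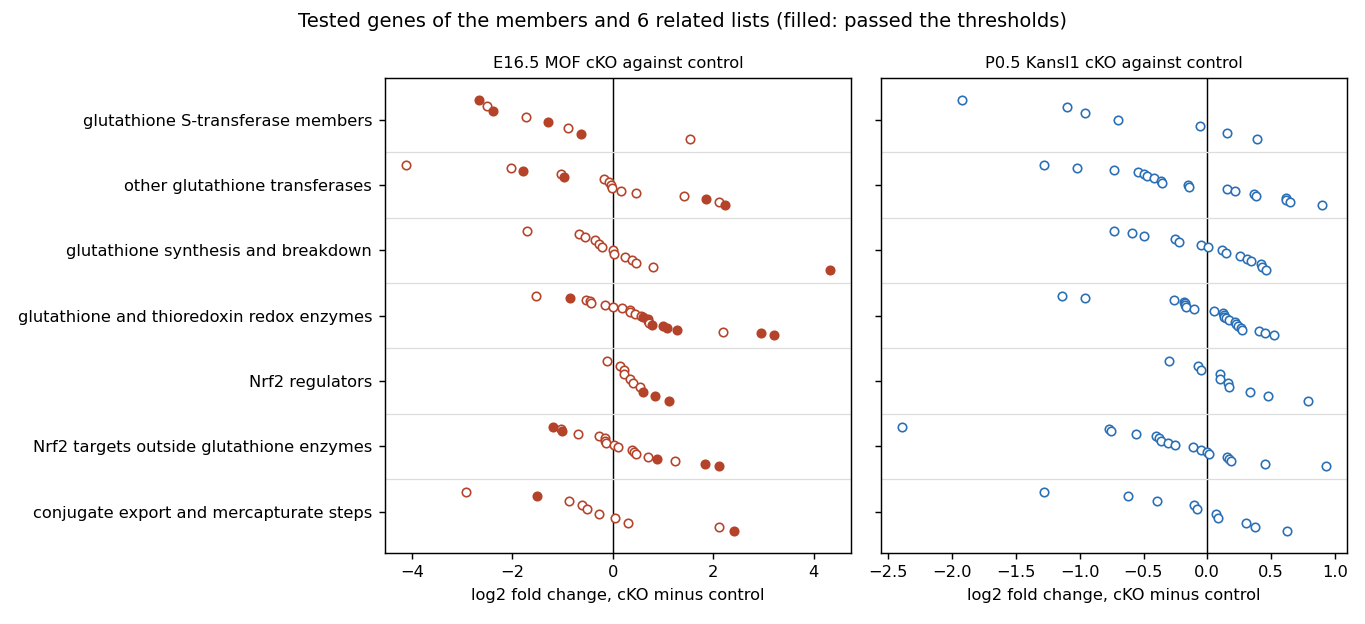
Log2 fold change (horizontal axes, cKO minus control, scaled separately for each experiment) of every tested gene of the 9 members and of 6 related lists, sorted within each list, with filled points for genes past both thresholds. In MOF cKO 9 redox enzymes rose and 1 fell while 4 members lay lower past the thresholds, and in Kansl1 cKO no point is filled.

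For Gstm4 and Gstm2, the members with the largest fitted difference at E16.5 and at P0.5 over all libraries, the genes most alike were found by Pearson's correlation of centred log2 CPM over the 8 libraries, which share a genotype contrast within each experiment. For Gstm4, among 12485 genes with a mean of at least 1 CPM at E16.5, these were AU040320 (r = 0.997), Wdr83 (0.996) and Lrpap1 (0.996). For Gstm2, among 12507 genes at P0.5, they were Slc35b1 (0.997), Foxred1 (0.990) and 1810014B01Rik (0.988). The nearest member to Gstm2 was Gstm1 (0.950), which ranked 47, and the nearest to Gstm4 was Gstm5 (0.915), which ranked 754.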

How the data were processed

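Paired reads of 150 bases from poly(A) libraries made with a directional kit were aligned to mm10 by the authors, who deposited raw counts per gene symbol from HTSeq-count. The study's methods name HISAT2 as aligner and the submitters' processing notes name TopHat2. The strand setting and annotation of the counting are not given in the sources used here. Entries naming no gene (21.1% to 26.0% of reads) were left out. Each experiment was fitted alone in R 4.3.3 with edgeR 4.0.16: filterByExpr, TMM scaling, the quasi-likelihood test and Benjamini-Hochberg adjustment. Genes were called at the study's cutoffs, 0.01 for the adjusted p and 1.5 for the fold change. The fit was tested on simulated data. DESeq2 1.42.0, other scalings, filters, thresholds and designs served as alternatives. CPM are counts per 1000000 with TMM library sizes, and a standard error is the absolute log2 fold change divided by the square root of F. Lengths and coordinates came from GENCODE M21, promoters from RefSeq (GRCm38.p6).

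Groups came from the sample titles. Replicates are separate libraries, and the study lists 2 pairs of samples for each experiment. Xist was at 1518 and 10.22 CPM in the E16.5 controls and 426.6 and 1.228 CPM in the P0.5 controls, so each control pair came from different animals. Xist does not separate the cKO libraries, and where these are not separate animals their spread is technical only. The members, the lists and the rule for naming genes were chosen with earlier results of these data known. Genes named were the 9 members, listed genes past the thresholds, every tested gene of the other glutathione transferases, and the 3 most alike genes. Genes near the cluster, Nqo1, Gclc, Gclm, Keap1, Nfe2l2 at P0.5, Cd68, Dcn and the single keratinocyte markers at E16.5 were named after their values were seen. Counts per library limit precision, and 1 count is 0.0326 to 0.0502 CPM at E16.5 and 0.0484 to 0.115 at P0.5.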

Additional observations from a re-analysis of the deposited data

How the results depend on the processing

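In MOF cKO the 8 tested members kept their sign under all 11 alternatives, and in Kansl1 cKO Gstm1, Gstm2, Gstm4, Gstm5 and Gstp1 did so under all 12. The exceptions were Gsta4, at 0.29 without P0.5 control replicate 1 and down to -0.40 without control replicate 2, and Gsto1, at -0.0821 without Kansl1 cKO replicate 2, -0.0085 without P0.5 control replicate 2 and up to 0.325 without Kansl1 cKO replicate 1. In MOF cKO the members called lower (4) ranged from 2 to 5 when 1 library was left out and those called higher (0) from 0 to 1. Gstm4 and Gstm5 lost their call without E16.5 control replicate 2 and Gstm1 without MOF cKO replicate 1, Gstp1 without either control, without MOF cKO replicate 1 and in 1 fit over all 8 libraries, and Gsto1 gained one without either control. Members called lower and higher were 6 and 1 without the filter, at an adjusted p of 0.05 and with the replicate block, where Gstm2 and Gsta4 gained a call as lower and Gsto1 as higher. Gstm2 also gained one without either control and without MOF cKO replicate 2, and Gsta4 with DESeq2, by library size and without control replicate 2. Genes of the 6 lists called lower (6) were 11 with DESeq2, 12 without the filter, 13 at an adjusted p of 0.05, 13 with the replicate block and 14 when scaled by library size alone, which also took those called higher from 19 to 12. All genes called lower (1338) were 2197 without the filter, 2263 with the replicate block, 2296 at an adjusted p of 0.05 and 2743 by library size, and those called higher (1395) were 769 by library size.

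In Kansl1 cKO edgeR called 0 members and 0 genes. Members called lower were 2 with DESeq2, 2 without the filter and 0 to 2 when 1 library was left out, Gstm2 without either Kansl1 cKO library and Gstm5 without Kansl1 cKO replicate 2. All genes called lower and higher were 55 and 35 with DESeq2, 117 and 73 without the filter, and 4 to 197 and 0 to 76 when 1 library was left out, where the lone library of a group is assumed to vary like the others. Library size alone called 1 gene lower. Genes of the lists called lower were 1 without the filter and 0 to 2 when 1 library was left out, and 1 was called higher without the filter. Same-numbered libraries deviated together in the E16.5 experiment (r = 0.27) and apart in the P0.5 experiment (r = -0.296), and while the study used littermate controls, nothing says that the number marks a litter. The replicate block changed no call at P0.5, and a crossed pairing, chosen after seeing the data, called 1 gene lower. Dividing by the longest transcript raised the summed levels to 289.3 CPM per kilobase in E16.5 control, 240.6 in MOF cKO, 362 in P0.5 control and 328.9 in Kansl1 cKO, with the same leading member in each group but other ranks changed. The cause of these shifts was not tested. With 2 libraries per group, few degrees of freedom limit every estimate here, and Gstm3 at P0.5 and Gstt1 were below what these depths can compare.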
